A study of Mus musculus with 43 samples.

Results

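The contractile apparatus of smooth muscle was followed through 10 genes in lung RNA of mice: Acta2, Actg2, Myh11, Mylk, Cnn1, Lmod1, Tagln, Des, Synpo2 and Myocd. They were taken by symbol from a table of 21938 genes, and all 10 passed the filter on low counts, as did 14836 genes in all. The study compared lungs of mice given bleomycin, a DNA-damaging antibiotic given to rodents as a model of lung fibrosis, with and without nintedanib, an inhibitor of the PDGF, FGF and VEGF receptor tyrosine kinases that is prescribed for idiopathic pulmonary fibrosis. There were 10 control mice given vehicle, 16 bleomycin mice given vehicle and 17 bleomycin mice given nintedanib, here called control, vehicle and nintedanib. Bleomycin mice without the drug received nintedanib's vehicle per the labels, which leave the kind of vehicle given to control mice unstated, so the vehicle and bleomycin cannot be told apart in the comparisons with control. The labels give no strain, age, sex, dose, route or time, and 1 library was made per sample from polyA RNA of the inferior lobe, with 13138281 to 19111457 counts in each.

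Smooth muscle cells shorten when the kinase encoded by Mylk phosphorylates the light chain of smooth muscle myosin, which then pulls on actin filaments. In the lung these cells wrap the airways and the pulmonary arteries. Acta2 is also a marker of the myofibroblast, the matrix-producing cell of fibrotic lung, whereas Myh11 and Cnn1 are used as markers of mature smooth muscle. Myocd encodes myocardin, a coactivator of the serum response factor (Srf) that binds the CArG box, a motif found in regulatory DNA of many contractile genes.

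Bleomycin mice on vehicle had lower levels of 7 of the 10 genes than control mice, by 1.29-fold (Des) to 2.19-fold (Cnn1), and none was higher. Over all genes tested 28.3% were lower and 29.5% higher. Tagln is among the 7 and is uncertain as measured, as set out below. With nintedanib, 4 of the 10 were higher than in vehicle mice, by 1.26-fold (Synpo2) to 1.98-fold (Cnn1), and none was lower. The shares over all genes were 3.21% higher and 4.10% lower. Acta2 passed the test in neither comparison, and Mylk was lower than control in both bleomycin groups. In lung tissue, fewer cells of a type and less RNA per cell cannot be told apart. Several of these calls were lost when libraries or markers of fat, airway epithelium and heart muscle were taken into account, and those values stand beside the results.

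**Figure D1:**
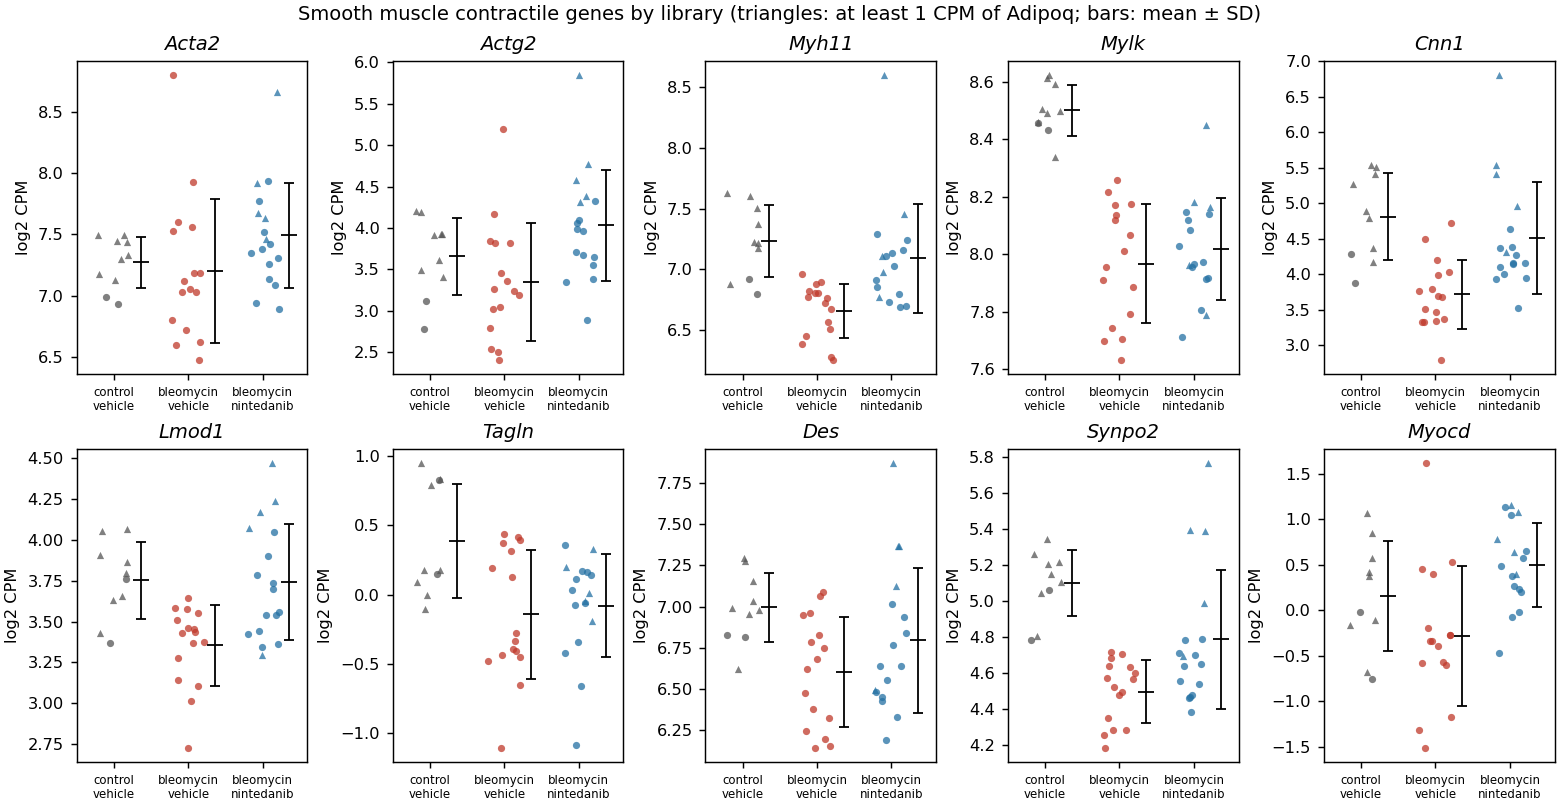
Level of each gene (log2 CPM, y axis) in each library of the 3 groups (x axis). Points are libraries, triangles are libraries holding 1 CPM or more of Adipoq, and bars give the mean ± SD. For Mylk and Synpo2 every vehicle library lies below every control library, and for Acta2 the 3 groups overlap.

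Levels are given on the log2 scale of CPM, the counts of a gene scaled to a library of fixed size, or as CPM per kilobase of exon where genes are compared with one another. In control lungs Acta2, smooth muscle alpha-actin, had the highest level at 71.0 ± 9.9 CPM per kilobase (SD, n = 10). Des, the muscle intermediate filament desmin, followed at 34.3 ± 5.0 and Mylk at 32.2 ± 2.0, which did not differ beyond their spread. Myh11, the smooth muscle myosin heavy chain, stood at 20.2 ± 4.1 CPM per kilobase, Cnn1 (calponin, an actin-binding protein) at 11.03 ± 4.42 and Actg2 (enteric gamma-actin) at 8.41 ± 2.51, and the last pair overlapped. Lmod1, which starts actin filaments in smooth muscle, was at 3.43 ± 0.55 and Synpo2, an actin-bundling protein, at 2.62 ± 0.32 CPM per kilobase. Tagln (transgelin, an actin-binding protein) and Myocd were barely counted, at 0.620 ± 0.197 and 0.169 ± 0.077 CPM per kilobase.

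In GENCODE on GRCm38 the 10 genes lie apart, on 7 chromosomes. The actin genes are Acta2 (ENSMUSG00000035783, chr19:34241090-34255590, minus strand) and Actg2 (ENSMUSG00000059430, chr6:83512905-83536265, minus). Myh11 (ENSMUSG00000018830, chr16:14194535-14291372, minus) and Mylk (ENSMUSG00000022836, chr16:34745210-35002420, plus) share a chromosome, as do Cnn1 (ENSMUSG00000001349, chr9:22099216-22109630, plus) and Tagln (ENSMUSG00000032085, chr9:45929619-45936058, minus). Des (ENSMUSG00000026208, chr1:75360329-75368579, plus) and Lmod1 (ENSMUSG00000048096, chr1:135324807-135368065, plus) are on chromosome 1, Synpo2 (ENSMUSG00000050315, minus) spans chr3:123076519-123236149 and Myocd (ENSMUSG00000020542, minus) spans chr11:65176561-65269989.

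Tagln is uncertain as measured. It had 5 to 31 counts in a library, and 67.86% of its exon bases are shared with genes on the opposite strand, 62.42% with the antisense gene Gm48529, which is not among the genes analysed here, and 5.433% with Pcsk7 (54.5 ± 3.4 CPM in control, SD, n = 10). Whether the authors' counting used the strand is not given in the sources used here, so reads of Tagln and of its antisense partner cannot be assigned with certainty. Of the other members, Des shares 5.86% and Mylk 6.854% of exon bases with opposite-strand genes, and 7 share none. Myocd had 4 to 46 counts in a library.

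Markers of other tissues differed between the libraries. Adipoq, the adipocyte hormone adiponectin, reached 1 CPM in 8 of 10 control, 0 of 16 vehicle and 5 of 17 nintedanib libraries. The summed CPM of 11 adipocyte markers ran from 20.1 to 3449 in control, 14.7 to 51.6 in vehicle and 19.9 to 1271 in nintedanib libraries; 9 of the 9 tested were lower in vehicle than in control and 7 were higher with nintedanib than with vehicle. The sum of 15 heart muscle markers ran from 375 to 1948 CPM in control, 33.8 to 658 in vehicle and 48.5 to 2286 in nintedanib libraries, and 14 of the 14 tested were lower in vehicle than in control. The sum of 12 airway epithelial markers ran from 17503 to 31735, 5280 to 20838 and 9187 to 21952 CPM, with 11 of 12 lower in vehicle than in control and 3 higher with nintedanib (Bpifa1, Bpifb1 and Reg3g). Over all genes tested 28.3% were lower in vehicle than in control and 3.21% higher with nintedanib than with vehicle. No marker of these 3 lists was at 0 counts throughout a group. Nintedanib replicate 1 held the highest level of its group for 9 of the 10 genes, all but Tagln, and for Bpifa1, and vehicle replicate 4 did so for Acta2, Actg2, Myocd and Col1a1.

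Mylk had the smallest adjusted p of the 10 in both comparisons with control. Its log2 CPM was 8.34, 8.49 and 8.62 in control (lowest, median and highest of 10), 7.63, 7.98 and 8.26 in vehicle (of 16) and 7.71, 7.97 and 8.45 in nintedanib libraries (of 17). Every vehicle library lay below every control library, as did 16 of 17 nintedanib libraries. The log2 fold change was -0.52 ± 0.07 (SE) for vehicle against control (edgeR quasi-likelihood test, Benjamini-Hochberg adjusted p = 2.6e-08) and -0.47 ± 0.07 for nintedanib against control (adjusted p = 1.8e-07). Nintedanib against vehicle gave 0.05 ± 0.06 (adjusted p = 0.65), with a 95% interval of -0.07 to 0.17. Without the libraries holding 1 CPM or more of Adipoq, which leaves 2 control libraries, vehicle against control was -0.46 (edgeR adjusted p = 0.0076), and with fat and airway markers or heart markers as covariates it was -0.41 (0.00025) and -0.39 (0.00067). Counts are per gene, so transcript forms of Mylk and the cells that made them were not told apart. How far Mylk went with Myh11 within groups is given below.

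Synpo2 was the other gene whose vehicle and control libraries did not overlap. Of all genes tested, 1.84% had every vehicle library below every control library. The Synpo2 log2 CPM was 4.78, 5.13 and 5.35 in control, 4.18, 4.54 and 4.71 in vehicle and 4.38, 4.69 and 5.76 in nintedanib libraries (lowest, median and highest). It fell by 0.61 ± 0.11 (SE) on the log2 scale in vehicle against control (edgeR adjusted p = 1.6e-05) and was 0.34 ± 0.10 higher with nintedanib than with vehicle (adjusted p = 0.031). Nintedanib libraries stayed 0.27 ± 0.11 below control on the log2 scale (log2 fold change -0.27, edgeR adjusted p = 0.042). The vehicle difference was -0.42 without the Adipoq libraries (adjusted p = 0.0089), -0.17 with fat and airway covariates (0.18) and -0.25 with the heart covariate (0.14). The nintedanib difference was lost in edgeR without nintedanib replicate 1 (0.25, adjusted p = 0.064), replicate 7 (0.30, 0.057), replicate 14 (0.29, 0.059) or vehicle replicate 3 (0.32, 0.052), and it was 0.10 without the Adipoq libraries (0.35). It also missed the threshold with library totals (0.32, edgeR adjusted p = 0.051), with only the 2 groups compared (0.34, 0.065) and within the largest library number series (0.37, 0.053).

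Myh11 was lower in vehicle and higher with nintedanib. Its log2 CPM was 6.80, 7.22 and 7.63 in control, 6.26, 6.74 and 6.96 in vehicle and 6.69, 7.02 and 8.60 in nintedanib libraries (lowest, median and highest). All 16 vehicle libraries were below the control median, and 10 of 17 nintedanib libraries were above every vehicle library. The log2 fold change was -0.59 ± 0.14 (SE) for vehicle against control (edgeR adjusted p = 0.00061), 0.50 ± 0.13 for nintedanib against vehicle (0.012) and -0.08 ± 0.14 for nintedanib against control (0.64). Leaving out nintedanib replicate 1, at 8.60, put nintedanib below control by -0.25 (adjusted p = 0.028), and nintedanib stayed above vehicle by 0.34 or more without any single library. Without the Adipoq libraries the differences were -0.18 for vehicle against control (edgeR adjusted p = 0.42) and 0.31 for nintedanib against vehicle (0.026). With fat and airway covariates they were -0.12 (0.60) and 0.32 (0.058).

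Cnn1 had the largest differences of the 10 between vehicle and control and between nintedanib and vehicle. Its log2 CPM was 3.87, 4.84 and 5.53 in control, 2.79, 3.68 and 4.71 in vehicle and 3.51, 4.27 and 6.80 in nintedanib libraries (lowest, median and highest). All 16 vehicle libraries lay below the control median and 16 of 17 nintedanib libraries lay above the vehicle median. The log2 fold change was -1.13 ± 0.27 (SE) for vehicle against control (edgeR adjusted p = 0.00052) and 0.99 ± 0.24 for nintedanib against vehicle (0.011). Nintedanib against control gave -0.14 ± 0.27 (0.68), and -0.45 without nintedanib replicate 1 (0.066). Among control libraries the SD of Cnn1 (0.61 on the log2 scale) was above that of 99.3% of genes at a like level.

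The 4 nintedanib libraries with the most Bpifa1, a secreted protein of the large airways, were also the 4 with the most Cnn1, Des, Actg2, Lmod1 and Synpo2. For Mylk 3 of the top 4 were shared, for Acta2, Myh11 and Myocd 2, and for Tagln 1. In the other groups the overlap was 1 to 3 of 4 for each of the 10 genes. Bpifa1 is 1 of the 12 airway markers and was also among the genes closest to the 10 (r = 0.72). How many genes of all those tested share these top 4 libraries was not counted. The 4 libraries richest in Bpifa1 are nintedanib replicates 1, 7, 8 and 14, with Bpifa1 at 11.2, 10.4, 8.52 and 10.1 log2 CPM against at most 5.05 in the other 13, and each holds over 1 CPM of Adipoq. Cnn1 was at 4.96 or above in them and at 4.64 or below in the others. Without the Adipoq libraries Cnn1 was 0.36 higher with nintedanib than with vehicle on the log2 scale (edgeR adjusted p = 0.15) and -0.29 against control in vehicle (0.50). With fat and airway covariates the values were 0.43 (0.080) and 0.00073 (1.0), and with the heart covariate 0.72 (0.040) and -0.29 (0.55).

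**Figure D2:**
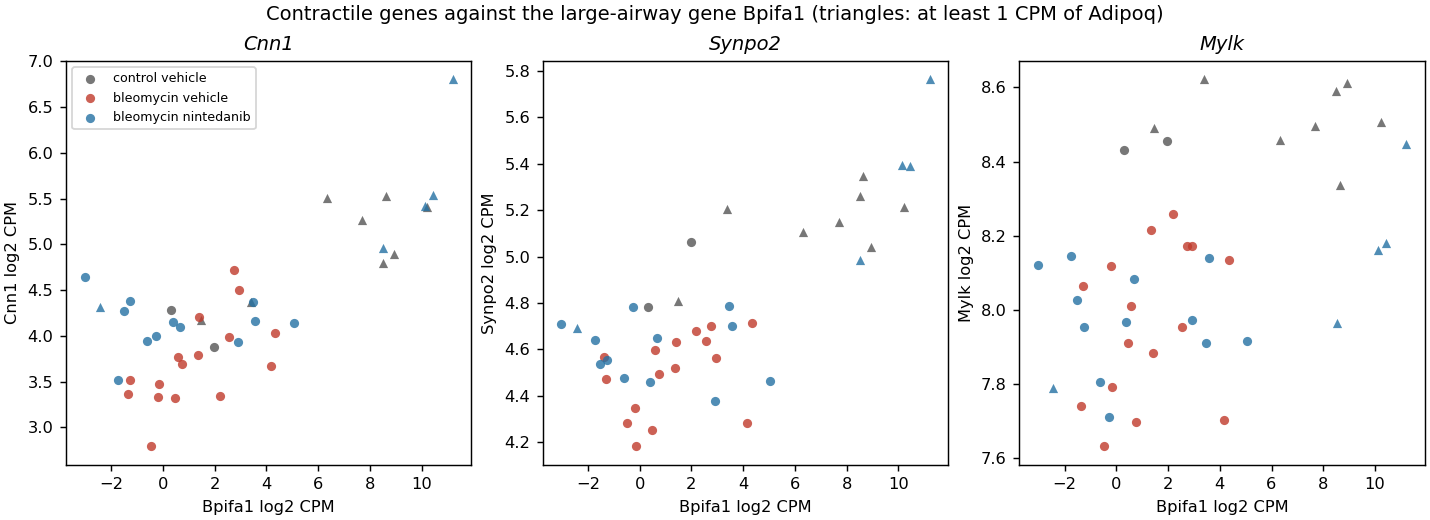
Log2 CPM of Cnn1, Synpo2 and Mylk (y axes) against log2 CPM of Bpifa1 (x axes) in 43 libraries, coloured by group. Triangles mark libraries with at least 1 CPM of Adipoq; the nintedanib libraries at the right are replicates 1, 7, 8 and 14, and control libraries lie at 8.34 or above for Mylk at low and at high Bpifa1.

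Lmod1 and Des gave smaller differences. Lmod1 ran from 3.37 to 4.06 log2 CPM in control, 2.73 to 3.65 in vehicle and 3.30 to 4.47 in nintedanib libraries. It fell by 0.40 ± 0.12 (SE, log2) in vehicle against control (edgeR adjusted p = 0.0030) and was 0.42 ± 0.10 higher with nintedanib than with vehicle (0.0096). With nintedanib it stood 0.02 ± 0.11 from control (0.92). Without the Adipoq libraries the differences were -0.20 (edgeR adjusted p = 0.42) and 0.26 (0.086), and with fat and airway covariates -0.04 (0.83) and 0.26 (0.031). Des ran from 6.62 to 7.30, 6.14 to 7.09 and 6.19 to 7.87 log2 CPM, and only its fall in vehicle passed the test (-0.37 ± 0.14, edgeR adjusted p = 0.024). That difference was 0.05 with the heart covariate (edgeR adjusted p = 0.86), 0.09 with fat and airway covariates (0.65), -0.18 without the Adipoq libraries (0.57) and -0.24 with 2 surrogate variables (0.12).

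Unlike Myh11, Acta2 passed the test in no comparison. Its log2 CPM was 6.93, 7.31 and 7.49 in control, 6.48, 7.09 and 8.80 in vehicle and 6.89, 7.42 and 8.66 in nintedanib libraries (lowest, median and highest). The vehicle libraries spread on both sides of control, with 5 of 16 above every control library and 5 below every one. The log2 fold change was 0.05 ± 0.19 (SE) for vehicle against control (edgeR adjusted p = 0.84, 95% interval -0.33 to 0.42), 0.23 ± 0.17 for nintedanib against vehicle (0.41, -0.10 to 0.55) and 0.27 ± 0.19 for nintedanib against control (0.23, -0.10 to 0.65). Without vehicle replicate 4 the first value turned to -0.16 (edgeR adjusted p = 0.37) and the second was 0.40 (0.070). Without nintedanib replicate 1 the second was 0.12 (0.69) and the third 0.17 (0.44). Actg2 overlapped in all groups, from 2.79 to 4.21, 2.41 to 5.20 and 2.89 to 5.84 log2 CPM. With nintedanib it was 0.67 ± 0.23 above vehicle (edgeR adjusted p = 0.071), and 0.89 without vehicle replicate 4 (0.0092), 0.72 without nintedanib replicate 17 (0.048) or 0.46 without nintedanib replicate 1 (0.19). DESeq2 gave it an adjusted p of 0.044.

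The level of Acta2 relative to Myh11 in the same library was then compared, as the difference of their log2 CPM. It was 0.04 ± 0.15 in control (SD, n = 10), 0.54 ± 0.59 in vehicle (n = 16) and 0.40 ± 0.26 in nintedanib mice (n = 17). Vehicle was 0.50 above control, with 14 of 16 libraries above the control median (permutation test, two-sided, 100000 resamples, p = 0.0075, adjusted over 27 tests 0.040). Nintedanib was 0.36 above control, with 17 of 17 libraries above the control median (permutation p = 0.00084, adjusted 0.011), and -0.14 against vehicle (adjusted 0.53). Without vehicle replicate 4 the vehicle difference was 0.39 (permutation adjusted p = 0.034). Only 2 control libraries hold under 1 CPM of Adipoq, so these differences from control were not tested without those libraries.

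Of the 27 such tests, 9 genes in 3 comparisons, 3 more passed. Cnn1 relative to Myh11 was 0.52 lower in vehicle than in control (log2 difference -0.52, permutation adjusted p = 0.039, 14 of 16 libraries below the control median). Actg2 relative to Myh11 was 0.51 higher with nintedanib than in control (permutation adjusted p = 0.021, 16 of 17 above the control median). Mylk relative to Myh11 differed between nintedanib and vehicle by -0.38 (permutation adjusted p = 0.0019, 15 of 17 below the vehicle median), and by -0.30 without the Adipoq libraries (0.0020). The rise of Myh11 under nintedanib was not matched by Mylk. These differences share the Myh11 value, and with Cnn1 as the reference gene 7, 6 and 3 of 9 genes passed in the 3 comparisons.

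**Figure D3:**
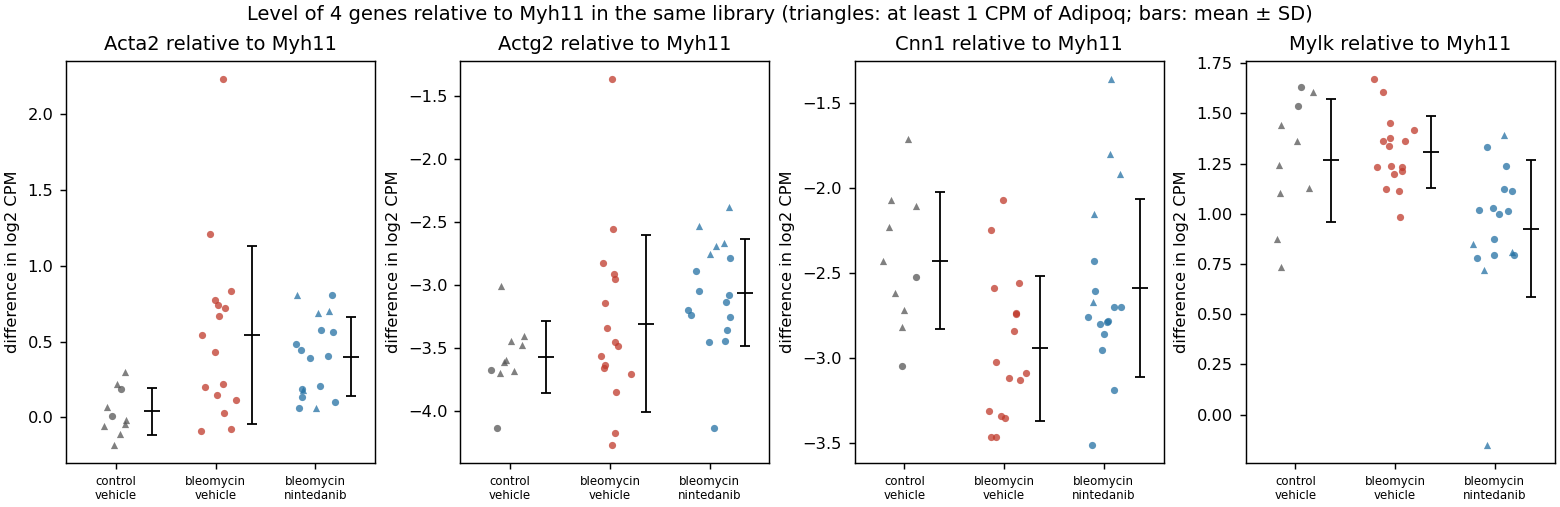
Log2 CPM of Acta2, Actg2, Cnn1 and Mylk minus that of Myh11 in the same library (y axes) by group (x axes). Points are libraries, triangles hold at least 1 CPM of Adipoq, and bars are mean ± SD; all 17 nintedanib libraries lie above the control median for Acta2, and 15 of 17 lie below the vehicle median for Mylk.

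Within groups, Acta2 tracked Myh11 in control mice (Pearson r = 0.88, permutation p = 0.0013, adjusted over 39 pairs 0.0083, Spearman rho = 0.87, permutation p = 0.0023, adjusted 0.040, n = 10) and kept r = 0.83 without the 2 libraries farthest from the median of Myh11. In vehicle mice r was 0.20 (permutation p = 0.46, adjusted 0.56, rho = 0.29, permutation p = 0.28, adjusted 0.39, n = 16) and 0.11 without the 2 farthest libraries. In nintedanib mice r was 0.82 (permutation p = 0.00043, adjusted 0.0054, rho = 0.68, permutation p = 0.0038, adjusted 0.040, n = 17) and 0.62 without the 2 farthest libraries. In vehicle mice Acta2 went with Col1a1, a chain of collagen I (r = 0.83, permutation p = 0.00026, adjusted 0.0054; rho = 0.73, permutation p = 0.0017, adjusted 0.040), and r was 0.54 without the 2 libraries farthest on Acta2. In control and nintedanib mice the Acta2 to Col1a1 r was 0.37 (permutation p = 0.29, adjusted 0.39, rho = 0.28, permutation p = 0.43, adjusted 0.54) and 0.32 (permutation p = 0.21, adjusted 0.30, rho = 0.38, permutation p = 0.13, adjusted 0.23), and -0.04 and 0.48 without the 2 farthest libraries. The differences between the groups' correlations were not tested. In nintedanib mice Myh11 and Cnn1 gave r = 0.78 (permutation p = 0.0046, adjusted 0.019, rho = 0.55, permutation p = 0.025, adjusted 0.089, n = 17) but 0.11 without the 2 farthest libraries, so this relation rests on those. Synpo2 against Myh11 went from r = 0.70 to 0.07 without those 2 libraries, and Actg2 from 0.79 to 0.36. Des went from 0.78 to 0.48, Lmod1 from 0.71 to 0.48 and Mylk from 0.73 to 0.37. Mylk against Myh11 gave r = 0.05 in control (permutation adjusted p = 0.88) and 0.66 in vehicle mice (0.021). Without the 2 farthest libraries these were -0.11 and 0.45. Myh11 against Foxj1 (ciliated airway), Myl7 (heart muscle) and Adipoq (fat) passed in no group. With nintedanib r was 0.26, 0.12 and 0.50 (permutation adjusted p = 0.42, 0.66 and 0.13), and -0.28, -0.32 and -0.07 without the 2 farthest libraries. Control mice gave 0.71, 0.49 and 0.51 (permutation adjusted p = 0.060, 0.22 and 0.21). Vehicle mice gave 0.16, 0.16 and 0.06 (permutation adjusted p = 0.62, 0.62 and 0.86).

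The Acta2 promoter is shown because 2 CArG-like boxes lie in it and because the offset of Acta2 from Myh11 differed from control in both bleomycin groups. The 250 bases before the start of each gene in the RefSeq promoter table (GRCm38.p6) were searched on both strands for the CArG box, which is CC, then 6 bases of A or T, then GG. The strict box was in the window of 0 of the 6 members with an entry (Acta2, Cnn1, Des, Lmod1, Synpo2 and Mylk) and in 1.62% of 27025 genes. With at most 1 G or C allowed in the core, a form tried after the strict one had found none, the box was in 1 of 6 members and in 9.78% of genes. Both boxes of that member, Acta2, are printed 5′ to 3′ on the minus strand, with the box in capitals, and both lie inside an exon of another annotated Acta2 transcript in GENCODE.
Acta2, 84 bases before the start, chr19:34255438-34255467: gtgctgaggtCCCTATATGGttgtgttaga
Acta2, 34 bases before the start, chr19:34255388-34255417: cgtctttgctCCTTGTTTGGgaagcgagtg
A match describes these letters only. Tagln, Myh11, Actg2 and Myocd were not searched.

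The remaining pair was scarce. Tagln ran from -0.11 to 0.95 log2 CPM in control, -1.10 to 0.43 in vehicle and -1.08 to 0.35 in nintedanib libraries, with 9 of 16 vehicle libraries below every control library. It was lower in vehicle (-0.57 ± 0.19 SE, edgeR adjusted p = 0.0084) and nintedanib mice (-0.54 ± 0.18, 0.013) than in control, and 0.03 ± 0.17 apart between them (0.93). Its strand and count limits apply to these values. Myocd ran from -0.75 to 1.07, -1.51 to 1.61 and -0.47 to 1.15 log2 CPM, and all groups overlapped. It was -0.38 ± 0.29 in vehicle against control (edgeR adjusted p = 0.25) and 0.71 ± 0.25 with nintedanib against vehicle (0.066, and 0.048 in DESeq2); without vehicle replicate 4 these were -0.68 (0.020) and 0.97 (0.0065).

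**Figure D4:**
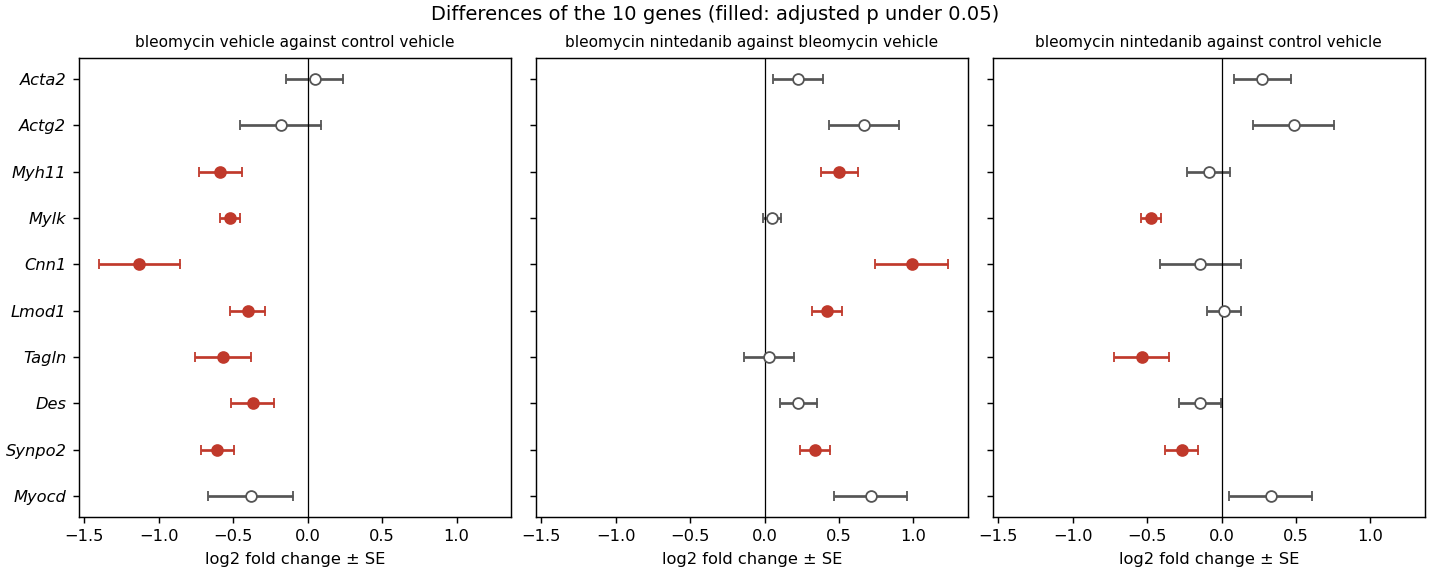
Log2 fold change ± SE (x axis) of each gene (y axis) in the 3 comparisons, filled where the adjusted p is under 0.05. In vehicle against control 7 of the 10 are filled and below 0, in nintedanib against vehicle 4 are filled and all 10 lie above 0, and in nintedanib against control 3 are filled and below 0.

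Read against all genes, the counts were as follows. In vehicle against control 28.3% of genes tested were called lower and 29.5% higher, against 7 and 0 of the 10, with a median log2 fold change of -0.46 for the 10 and -0.01 for all genes. In nintedanib against vehicle 3.21% of genes were called higher and 4.10% lower, against 4 and 0 of the 10, with medians of 0.38 and 0.00. In nintedanib against control 28.1% were called higher and 25.1% lower, against 0 and 3 of the 10 (Tagln, Synpo2 and Mylk), with a median of -0.11 for the 10. That median was -0.24 without nintedanib replicate 1, 0.07 without the Adipoq libraries, 0.21 with fat and airway covariates and 0.20 with the heart covariate. The 2 comparisons with vehicle mice share those mice, so opposite signs in them are not separate evidence. The library numbers fall into 3 series, and within the largest (9 control, 11 vehicle and 13 nintedanib libraries) 7, 3 and 2 of the 10 were called in the 3 comparisons. Scaling by library totals alone changed the split over all genes from 4381 higher and 4204 lower to 3736 and 4882 in vehicle against control, from 476 higher and 608 lower to 369 and 813 in nintedanib against vehicle, and from 4171 and 3717 to 3250 and 4844 in nintedanib against control.

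Leaving out the Adipoq libraries left 2 of the 10 called in vehicle against control (Mylk and Synpo2 lower), 1 in nintedanib against vehicle (Myh11 higher) and 1 in nintedanib against control (Mylk lower). Only 2 control libraries remained in that fit, in which Tagln was not called in vehicle against control at -0.66 (edgeR adjusted p = 0.18), a value no smaller than with all libraries. With fat and airway covariates, 2 were called lower in vehicle against control (Mylk and Tagln) and 1 was called higher in nintedanib against vehicle (Lmod1). In nintedanib against control the same covariates gave Acta2 (0.53, edgeR adjusted p = 0.046) and Actg2 (1.01, 0.0022) above control and Mylk and Tagln below it. Calls over all genes changed in these fits too. Genes lower in vehicle against control were 4204 of 14836 with all libraries and no covariate, and 1604 of 15276 without the Adipoq libraries. They were 2648 of 14836 with fat and airway covariates and 1995 with the heart covariate. Genes higher in nintedanib against vehicle were 476, 248, 605 and 561 in the same 4 fits. Adipoq status, airway and heart markers moved with the groups, and their part in the differences beyond these fits was not tested.

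**Figure D5:**
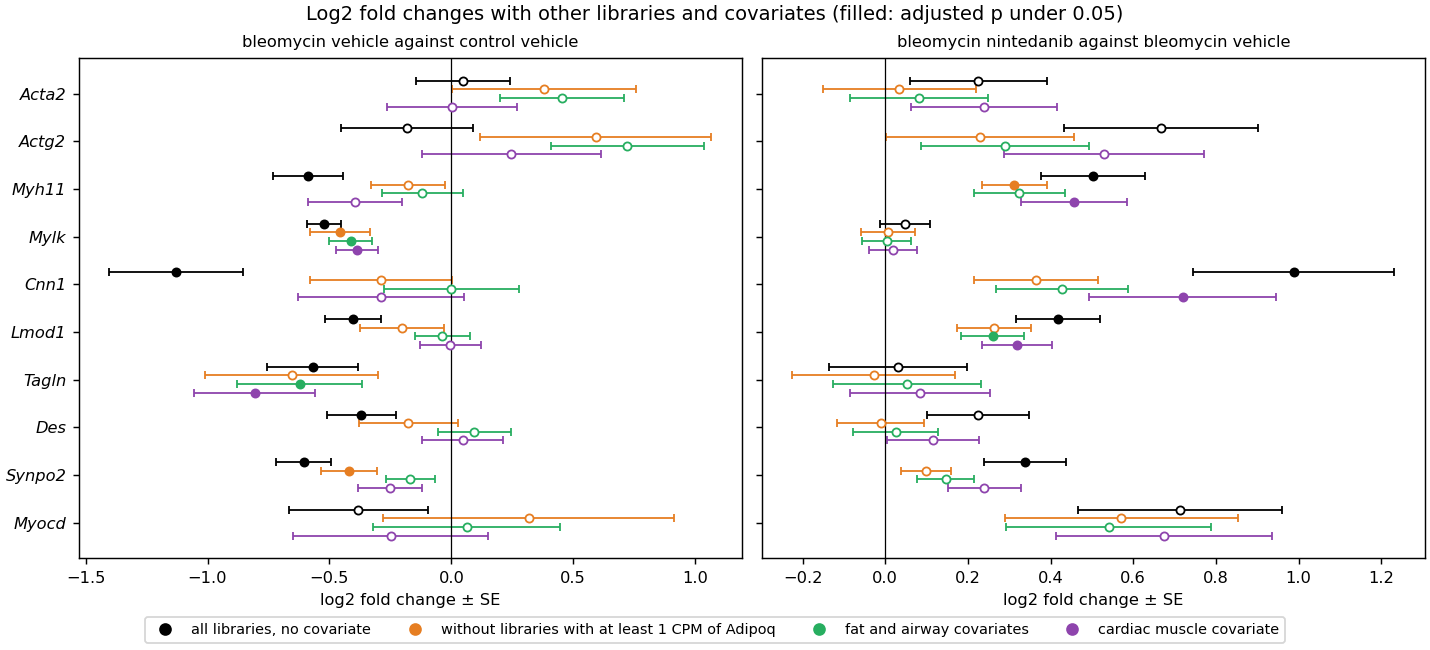
Log2 fold change ± SE (x axes) of each gene (y axis) with all libraries, without libraries holding at least 1 CPM of Adipoq, and with covariates for fat and airway or for heart muscle; filled points have an adjusted p under 0.05. In vehicle against control Mylk lies between -0.52 and -0.39 in the 4 fits, and in the 2 comparisons plotted the values of Cnn1 come closer to 0 than with all libraries and no covariate.

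Partner genes of the filaments were called in both directions. Of 18 other thin and thick filament genes, 6 were higher and 5 lower in vehicle than in control, and 1 was lower with nintedanib than with vehicle. Over all genes tested the shares were 29.5%, 28.3% and 4.10%, and the counts of this list lie near them. Myl9, the light chain that the Mylk kinase phosphorylates, was lower in vehicle (-0.45 ± 0.14 SE, edgeR adjusted p = 0.0060) and 0.25 ± 0.12 above vehicle with nintedanib (0.21). The tropomyosin Tpm2 (0.14 ± 0.16, 0.46) and caldesmon, Cald1 (0.13 ± 0.10, 0.28), were not called in vehicle against control. Smtn, smoothelin, was lower with nintedanib than with vehicle (-0.27 ± 0.08, edgeR adjusted p = 0.042), opposite in sign to the 10 genes. The cytoplasmic Actg1 was higher in vehicle (0.55, 4.4e-07) and the non-muscle myosin Myh10 lower (-0.67, 1.8e-06). The largest fall was in Lmod2 (-2.65, edgeR adjusted p = 9.9e-05), a leiomodin of heart and skeletal muscle.

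Genes that anchor filaments and carry the signal to contract were lower in vehicle more often than higher. Over all genes tested 28.3% were lower and 29.5% higher in vehicle than in control. Of 24 dense body, costamere and membrane anchor genes, 14 were lower and 7 higher in vehicle than in control. Ldb3 (-1.90, edgeR adjusted p = 3.1e-05), Sgca (-1.17, 0.0083), Pgm5 (-1.12, 1.9e-08) and Synm (-1.10, 1.0e-07) fell most, and heart muscle also uses several of these. With nintedanib against vehicle Pdlim5 was higher (0.25, edgeR adjusted p = 0.0013) and the integrin Itga5 lower (-0.28, 0.049). Of 32 contraction signalling, calcium and receptor genes, 20 were lower and 5 higher in vehicle, with a median log2 fold change of -0.58. The prostaglandin F receptor Ptgfr (-1.80, 2.1e-07), the adrenergic receptor Adra1a (-1.69, 5.0e-07) and the endothelin receptor Ednrb (-1.60, 2.0e-06) were among the lowest, together with Pln (-2.10, 0.00093), phospholamban, which heart muscle also makes. With nintedanib against vehicle Kcnmb1, a subunit of the calcium-activated potassium channel of smooth muscle (0.68, edgeR adjusted p = 0.024), and the calcium release channel Itpr1 (0.19, 0.027) were higher, and Rgs5 (-0.89, 0.045) and Arhgef1 (-0.17, 0.023) lower.

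Of 21 tested regulators of the smooth muscle programme, 12 were lower and 2 higher in vehicle than in control, beside 28.3% and 29.5% of all genes. Srf itself was -0.04 ± 0.07 (SE, edgeR adjusted p = 0.60), its coactivator gene Mrtfa was higher (0.30 ± 0.07, 0.00027) and Mrtfb gave 0.11 ± 0.05 (0.066). Klf4, which represses contractile genes, was lower (-0.45 ± 0.12, edgeR adjusted p = 0.0011), as were Klf15 (-1.18, 5.2e-07), Foxf1 (-0.94, 1.0e-06), Meis1 (-0.94, 2.0e-09) and Foxc1 (-0.84, 0.00021). With nintedanib against vehicle Klf15 (0.55, edgeR adjusted p = 0.029) and Tead1 (0.20, 0.040) were higher and Mef2c lower (-0.38, 0.011), whereas Srf (-0.13, 0.16), Mrtfa (-0.10, 0.27) and Klf4 (-0.08, 0.65) were not called. In nintedanib against control 11 of the 21 were lower and 5 higher, beside 25.1% and 28.1% of all genes.

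Marker lists of cells that make these transcripts gave mixed counts. Over all genes 28.3% were lower and 29.5% higher in vehicle than in control, and 4.10% lower and 3.21% higher with nintedanib than with vehicle. The lists overlap, with Notch3 in the vascular smooth muscle and pericyte lists and Postn in the pericyte and activated fibroblast lists. Pln (vascular), Chrm2 and Chrm3 (airway smooth muscle) and Trpc6 and Gucy1a1 (pericyte) are also in the contraction signalling list. The counts of these lists are therefore not separate from one another. Of 6 tested airway smooth muscle markers 4 were lower and 1 higher in vehicle than in control, with Lgr6 at -1.83 ± 0.43 (SE, edgeR adjusted p = 0.00040), the muscarinic receptors Chrm3 at -0.98 (4.1e-05) and Chrm2 at -0.55 (0.0018), and Nog at 1.64 (2.9e-05). Of 7 tested vascular smooth muscle markers 4 were lower and 2 higher, and with nintedanib against vehicle only Heyl was called (-0.40, edgeR adjusted p = 0.018). Of 12 pericyte markers 5 were lower and 2 higher in vehicle, and 3 were lower with nintedanib than with vehicle, namely Cspg4 (-0.50, edgeR adjusted p = 0.020), the receptor Pdgfrb (-0.40, 0.030) and Higd1b (-0.31, 0.019). Of 15 activated fibroblast and myofibroblast genes 13 were higher in vehicle than in control, led by Grem1 (5.81, 1.8e-10), and none was called with nintedanib against vehicle (median -0.43).

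Across 43 libraries, after group means were removed, the genes whose log2 CPM went most closely with the mean of the 10 were Myl9 (r = 0.84), Krt15 (0.80), Jph2 (0.79), Tpm2 (0.73), Lgr6 (0.72), Aqp3 (0.72), Cdh26 (0.72) and Bpifa1 (0.72). This is a description over libraries that share depth and tissue piece, and the keratin Krt15 and Bpifa1 are epithelial genes. Among the 10, each gene against the mean of the other 9, Cnn1 (0.87), Des (0.86) and Actg2 (0.85) were closest to the rest, and Mylk (0.54), Myocd (0.39) and Tagln (0.17) were the farthest.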

How the data were processed

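The deposited table holds raw read counts per gene made by the authors from single-end reads of directional libraries, per the labels' protocols; STAR 2.7.0f, R 3.6.0 and GRCm38 are named in the submitters' processing notes, and the strand setting of the counting is not given in the sources used here. Counts were used as deposited. Symbols, exons and overlaps came from GENCODE (GRCm38). With edgeR 4.0.16 in R 4.3.3, genes were filtered (filterByExpr, minimum count 10, minimum total 15), scaled by TMM and fitted by the quasi-likelihood method with 1 coefficient per group over 43 libraries. The adjusted p is by Benjamini-Hochberg over 14836 genes with a threshold of 0.05, and intervals are 1.96 SE either side. Levels are log2 CPM with a prior count of 2. The tested genes held 99.96% of the counts, and the median coefficient of variation was 13.6%. Total counts per library set the precision: they ran from 13138281 to 19111457, and genes with few counts (Tagln, Myocd) are the least precise.

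Groups came from the titles and treatments. The labels do not say in so many words that each library is a separate animal, and if some are not, the p-values reflect technical spread. The 301 pairs of libraries of 1 group differed beyond counting noise (chi-square per degree of freedom at least 5.22). Differences from Myh11 and within-group correlations were tested by permutation (own code with NumPy 2.4.6, 100000 resamples), only with 10 or more libraries in each group. Ranks came from SciPy 1.17.1. The fits were tested on simulated counts. Alternatives were RLE scaling, library totals, DESeq2 1.42.0, no filter, only the groups compared, library number series, libraries with Adipoq, covariates for fat and airway or heart, 2 surrogate variables (sva 3.50.0) and each library left out. The members and gene lists were chosen with earlier results of these data known. The genes named are the 10, a fixed set of 8 partners and regulators (Srf, Mrtfa, Mrtfb, Klf4, Myl9, Tpm2, Cald1 and Smtn), up to 4 called genes of largest change per list, and the 8 genes closest to the members. Markers set against Myh11 or Acta2 in the correlations are named too. A single gene selected by this rule was left out of the text and is not reported here.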

Additional observations from a re-analysis of the deposited data

How the results depend on the processing

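Mylk was below control in both bleomycin groups under every alternative run. Counts of the 10 genes called stayed within 1.5 times (7, 4 and 3 in vehicle against control, nintedanib against vehicle and nintedanib against control) under RLE scaling, library totals, DESeq2, no filter, only the groups compared, the number series and 2 surrogate variables, and without any single library. The genes called could differ: in nintedanib against vehicle DESeq2 and 2 surrogate variables each gave 6, adding Actg2 and Myocd, and in nintedanib against control 1 gene was higher and 2 lower with 2 surrogate variables (Actg2 higher, 0.70) and with the heart covariate (Lmod1 higher, 0.32). In vehicle against control they were 2 without libraries with Adipoq, 2 with fat and airway covariates and 2 with the heart covariate; in nintedanib against vehicle they were 1 and 1 under the first 2 of these, and in nintedanib against control 1 without libraries with Adipoq. Synpo2 in nintedanib against control was lost in 13 of the fits that leave out 1 library. Of the tests relative to Myh11, 2, 1 and 2 passed; with Cnn1 as reference 7 and 6 passed in the first pair of comparisons, and 3 passed in nintedanib against vehicle without libraries with Adipoq, which for the comparisons with control were not run, nor with the largest number series alone, because under 10 control libraries remained. No paired analysis was possible because the labels give no numbers that link libraries across groups.

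Some values changed sign. None was called after the change, only Cnn1 and Des in vehicle against control were called before it, and the cause was not tested. In vehicle against control these were, without libraries with Adipoq, Actg2 0.59 and Myocd 0.32; with fat and airway covariates Cnn1 0.00073, Des 0.095, Actg2 0.72 and Myocd 0.064; with the heart covariate Des 0.048 and Actg2 0.25; and with 2 surrogate variables Actg2 0.044. In nintedanib against vehicle they were Tagln -0.028 and Des -0.011 without libraries with Adipoq. In nintedanib against control they were Lmod1 -0.047 with library totals and -0.017 with only the 2 groups; Myh11 0.13 and Cnn1 0.076 without libraries with Adipoq; Myh11 0.20, Cnn1 0.43 and Des 0.12 with fat and airway covariates; Myh11 0.061, Cnn1 0.43 and Des 0.16 with the heart covariate; and Cnn1 0.10 with 2 surrogate variables. Tagln minus Myh11 was -0.0079 in vehicle against control with a prior count of 0.5. Without 1 library at a time, Acta2 ran from -0.16 to 0.091 in vehicle against control, Lmod1 from -0.058 to 0.042 in nintedanib against control and Tagln from -0.022 to 0.084 in nintedanib against vehicle. Without vehicle replicate 4 or nintedanib replicate 1, a choice made after seeing the data, Myocd minus Myh11 was -0.000114 and 0.13 in vehicle against control, and Lmod1 minus Myh11 was -0.032 and 0.0038 in nintedanib against vehicle.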
